A study of Mus musculus with 30 samples.

Results

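The genes described are 37 that encode the factors with which a cell makes ribosomes: subunits and cofactors of RNA polymerase I, the guide RNA particles that modify ribosomal RNA, and proteins that fold, cut and assemble the precursors of the small and the large subunit. They were chosen by name, from a list of gene symbols, and all 37 were found among the 11249 genes of the deposited expression table. The table covers 30 RNA libraries of hindlimb gastrocnemius and forelimb triceps brachii of male mice, taken 3 days after sham surgery or after transection of the spinal cord, high in the thorax at T3 or low at T9. Each gastrocnemius group holds 4 libraries and each triceps group 6. The sources used here give neither strain nor age, nor what sham surgery consisted of, and no group carried a drug or a transgene by its labels. In all groups polyA RNA was taken from a piece of whole muscle, so ribosomal RNA itself was not measured.

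Ribosome production starts in the nucleolus, where RNA polymerase I, recruited by Rrn3 and Ubtf, transcribes the ribosomal DNA into a long precursor. Box C/D particles around fibrillarin (Fbl) methylate this RNA, box H/ACA particles around dyskerin (Dkc1) convert uridines to pseudouridines, and a succession of helicases, chaperones and assembly factors turns it into the 2 subunits. In skeletal muscle the rate of ribosome production is known to rise during growth under load, and the transcription factor Myc, which binds the E-box CACGTG, is known to activate many genes of this pathway.

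Since the members moved together, the bases just before their start sites were searched for the E-box, whose letters read the same on both strands. RefSeq start sites of the GRCm38.p6 build were matched for 33 of the 37 members, and the 250 bases upstream were read in the direction of the gene. The E-box occurred in 2 of these 33 genes, or 6.06%, compared with 10.4% of 8375 genes of the expression table and 6.86% of 27025 genes with a RefSeq entry. Nop2 held it with its first base 60 bases before the start, and Rrn3 held it at 215 and at 48 bases before the start. The upstream bases of these members are shown with the E-box in capitals, beside those of Nop14 and Polr1b, members with large changes in which these letters were not found in the window.
Nop2 (chr6:125131633-125131882, plus strand): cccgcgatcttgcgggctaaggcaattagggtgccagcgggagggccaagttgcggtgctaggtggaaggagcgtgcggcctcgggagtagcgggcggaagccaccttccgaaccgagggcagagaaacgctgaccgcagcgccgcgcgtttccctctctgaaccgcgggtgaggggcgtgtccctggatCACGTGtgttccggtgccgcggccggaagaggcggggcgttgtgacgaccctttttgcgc
Rrn3 (chr16:13780449-13780698, plus strand): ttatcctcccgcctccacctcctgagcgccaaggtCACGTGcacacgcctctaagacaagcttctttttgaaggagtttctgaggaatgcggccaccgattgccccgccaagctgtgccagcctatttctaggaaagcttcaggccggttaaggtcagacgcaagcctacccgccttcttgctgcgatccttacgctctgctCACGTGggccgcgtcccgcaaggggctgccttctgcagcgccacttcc
Nop14 (chr5:34660149-34660398, minus strand): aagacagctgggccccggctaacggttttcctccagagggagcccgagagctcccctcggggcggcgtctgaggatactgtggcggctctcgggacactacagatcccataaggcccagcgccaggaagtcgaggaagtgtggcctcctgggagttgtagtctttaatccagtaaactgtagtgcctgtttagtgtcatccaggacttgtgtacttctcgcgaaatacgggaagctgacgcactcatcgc
Polr1b (chr2:129100746-129100995, plus strand): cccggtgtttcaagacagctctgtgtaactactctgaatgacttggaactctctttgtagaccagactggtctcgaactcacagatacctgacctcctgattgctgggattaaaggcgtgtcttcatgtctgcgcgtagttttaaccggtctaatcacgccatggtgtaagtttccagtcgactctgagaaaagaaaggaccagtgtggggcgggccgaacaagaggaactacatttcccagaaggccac
A match is a description of the letters and does not show that a factor binds there.

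Sequencing depth, counted as reads assigned to the genes of the table, was 13.3 M to 23.4 M reads (M is 1e+06) in 29 libraries and 88.8 M in triceps T3 replicate 5. The muscle fibre markers summed to 87686 to 156634 CPM (reads per 1e+06 reads) in all libraries, with 10 of 10 markers in the table, so the samples read as muscle. In triceps sham replicate 4 the 9 macrophage markers in the table summed to 1008 CPM, compared with 21.1 to 78.0 CPM in the other libraries. Median gene levels were lowest in replicates 3 and 4 of triceps sham, in replicate 4 of gastrocnemius sham and in replicate 1 of triceps T9, and results that move over 1.5-fold without these 4 libraries are given both ways. Median levels of all genes rose with injury, by 0.27 on the log2 scale after T3 and 0.40 after T9 in the gastrocnemius and by 0.23 and 0.17 in the triceps, and the changes of the members are read beside these shifts.

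In the gastrocnemius most of the 37 members rose after injury at either level. After T3, 30 of the 37 members were higher than in sham and none was lower, against 27.1% of all genes tested that were called higher and 6.65% called lower (limma, Benjamini-Hochberg adjusted p under 0.05). After T9, 34 of 37 were higher and none was lower, against 37.6% of all genes called higher and 5.67% called lower. Per library, the median log2 level of the 37 members was 4.77 ± 0.30 (SD, n = 4) in sham, 5.56 ± 0.22 after T3 and 5.69 ± 0.10 after T9. The median member changed by 0.76 on the log2 scale after T3 and by 0.96 after T9, compared with 0.27 and 0.40 for all genes. After each library was centred on its own median, 21 and 22 members were still called higher, beside 14.6% and 11.1% of all genes. With the library median as a covariate, which takes up part of the difference between groups, 10 (T3) and 7 (T9) members were called. The share of all genes called in that fit is not given. In bulk muscle a change in the RNA per cell and a change in the share of cells that carry it cannot be told apart. The marker sums of macrophages in the gastrocnemius were 21.5 to 65.8 CPM in sham, 45.4 to 54.2 CPM after T3 and 40.3 to 60.3 CPM after T9, those of fibroblasts 295 to 407, 272 to 375 and 311 to 415 CPM, and those of satellite cells 3638 to 4877, 5731 to 6317 and 5634 to 6655 CPM. The satellite cell sum is mostly Des, which muscle fibres also express, and Pax7 is not among the 7 of 8 markers in the table. Counted gene by gene, 3 of these 7 satellite cell and myogenic markers were higher after T3 (median change 0.47) and 5 of 7 after T9 (median 1.27). Median centring left 2 of 7 higher after T3 (median 0.19) and 4 of 7 after T9 (median 0.87). After median centring, 4 of 6 fibroblast markers were lower after T3 (median -0.83) and 2 of 6 after T9 (median -0.39). Of 10 muscle fibre markers 5 were lower after T3 and 5 after T9 once centred (medians -0.62 and -0.60). No marker of these last 2 lists was higher. Endothelial markers, with 5 of 5 in the table, summed to 49.0 to 220 CPM in sham, 157 to 223 CPM after T3 and 179 to 219 CPM after T9, and 0 of 5 were called in either comparison. Mitochondrial transcripts took 9.54% to 13.1% of reads in sham, 7.47% to 8.06% after T3 and 7.66% to 9.27% after T9. The part of other cells and of the mitochondrial share in the changes was not tested.

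**Figure D1:**
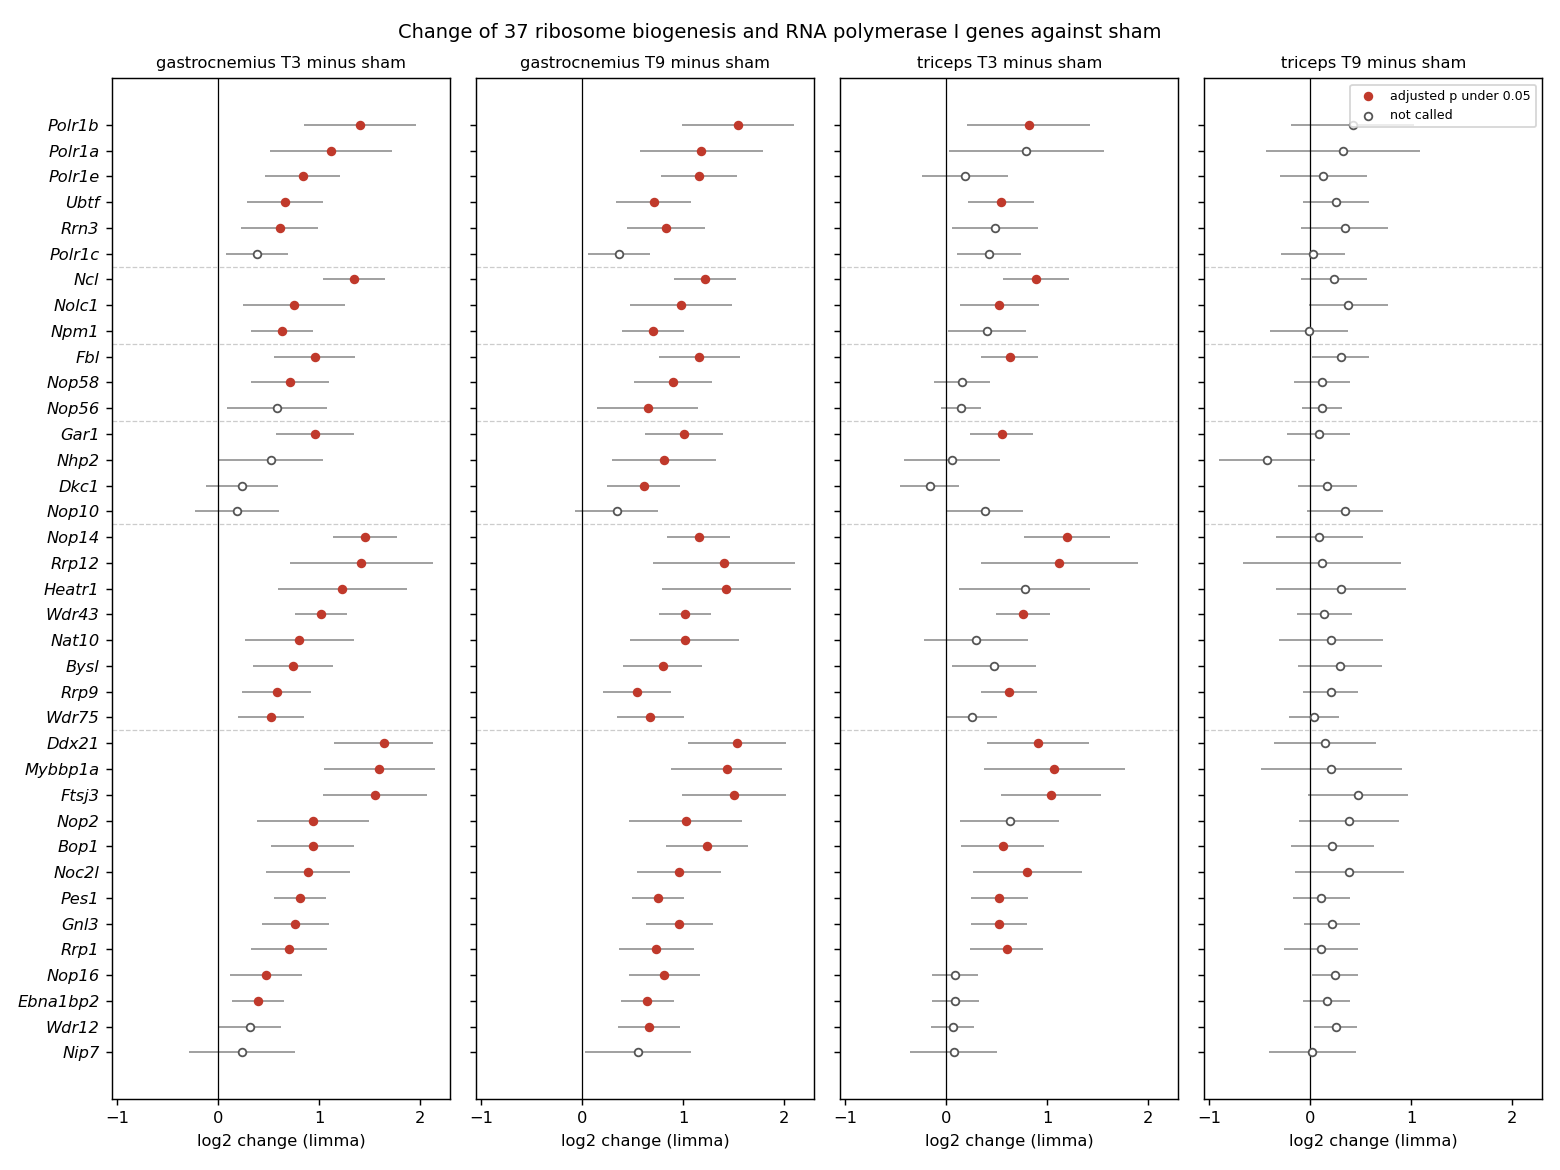
Log2 change against sham of each of the 37 members (rows, dashed lines part the roles, in the order RNA polymerase I, nucleolar chaperones, C/D particles, H/ACA particles, small subunit and large subunit) in 4 comparisons, with 95% intervals from limma. Filled points are called at adjusted p under 0.05: 30 (T3) and 34 (T9) in the gastrocnemius, 18 in the triceps after T3 and 0 in the triceps after T9.

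Of the 6 members that form RNA polymerase I and its initiation machinery, 5 rose after T3 and 5 after T9 in the gastrocnemius. Polr1b, the second largest subunit of the enzyme (ENSMUSG00000027395, chr2:129100995-129126594, GRCm38, plus strand), was at 8.25, 17.4, 15.5 and 6.74 CPM in sham, at 24.8, 31.5, 33.7 and 28.0 CPM after T3 and at 28.6, 32.1, 33.7 and 35.1 CPM after T9. No injured library overlapped a sham library. The log2 change was 1.40 ± 0.26 (SE, limma adjusted p = 0.00141) after T3 and 1.54 ± 0.26 (limma adjusted p = 0.000786) after T9, which is 2.65-fold and 2.92-fold. Polr1a, the largest subunit and the one that carries the catalytic site, was at 24.4, 52.1, 45.9 and 17.1 CPM in sham, between 61.7 and 78.7 CPM after T3 and between 63.6 and 82.2 CPM after T9. Its changes were 1.12 ± 0.28 (limma adjusted p = 0.00908) and 1.18 ± 0.28 (0.00624), and the sham libraries ranged over more than the injured ones. Polr1e, a subunit of the initiation and elongation subcomplex, was the member with the lowest reads. It went from 3.52 ± 0.322 CPM (SD, n = 4) in sham to 6.36 ± 1.18 CPM after T3 and 7.87 ± 0.841 CPM after T9.
The initiation factor Rrn3, which carries the polymerase to the promoter, rose from 43.1 ± 10.5 to 64.6 ± 9.10 and 74.7 ± 1.80 CPM (changes of 0.61 and 0.83). Ubtf, which opens the ribosomal DNA for transcription, rose from 50.8 ± 9.73 to 80.4 ± 16.5 and 81.9 ± 6.12 CPM (0.66 and 0.71). Polr1c, a subunit that RNA polymerase III also contains, missed the threshold in both comparisons, with changes of 0.39 ± 0.14 (limma adjusted p = 0.0507) and 0.36 ± 0.14 (0.0543).

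The nucleolar chaperones nucleolin (Ncl), Nolc1 and nucleophosmin (Npm1) were all called higher in the gastrocnemius after either transection. Ncl, an abundant RNA-binding protein of the nucleolus (ENSMUSG00000026234, chr1:86344719-86359400, GRCm38, minus strand), was at 182, 201, 229 and 154 CPM in sham. It reached 429, 546, 523 and 441 CPM after T3 and 465.98, 419, 414 and 463 CPM after T9. Every injured library lay above every sham library. Its log2 change was 1.35 ± 0.14 after T3 (2.55-fold, limma adjusted p = 3.03e-05) and 1.22 ± 0.14 after T9 (2.32-fold, 8.54e-05). Npm1, which shuttles ribosomal particles out of the nucleolus, changed by 0.63 ± 0.14 and 0.70 ± 0.14. Its value is uncertain, because 2 processed pseudogenes in the table share at least 95% of its sequence over at least 300 bases and reads may be split among them. Fbl, Nop56, Pes1, Wdr12 and Ddx21 also have look-alikes within these limits, none of them in the table, and may lose reads to them.

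Of the 3 box C/D proteins 2 were called higher after T3 and 3 after T9, and of the 4 H/ACA proteins 1 and 3. Fbl, the methyltransferase of the C/D particle, went from 20.1, 18.9, 20.5 and 11.6 CPM in sham to 27.6, 34.2, 38.2 and 35.6 CPM after T3 and 44.2, 35.9, 35.9 and 39.2 CPM after T9. All injured libraries exceeded all sham libraries, and the changes were 0.96 ± 0.19 and 1.16 ± 0.19. The other C/D proteins, Nop56 and Nop58, changed by 0.58 (limma adjusted p = 0.0663) and 0.71 (0.00882) after T3, and both were called after T9. Of the 4 H/ACA proteins, Gar1 was called after T3 (0.96 ± 0.18), and Gar1, Nhp2 and Dkc1 were called after T9 (1.01, 0.81 and 0.61). Nop10, the smallest protein of the particle, changed by 0.19 ± 0.19 and 0.34 ± 0.19 and was called in neither comparison. Its sham libraries, at 53.8, 31.1, 34.9 and 56.3 CPM, overlapped with those after T3 (39.4 to 52.7 CPM) and after T9 (49.99 to 59.5 CPM).

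All 8 members of small subunit processing were called higher after T3 and after T9. Nop14, a scaffold of the small subunit processome (ENSMUSG00000036693, chr5:34638536-34660148, GRCm38, minus strand), had the smallest adjusted p of the members after T3. It was at 20.7, 23.9, 25.0 and 17.0 CPM in sham, at 60.62, 64.8, 58.9 and 50.6 CPM after T3 and at 43.4, 46.7, 48.6 and 52.0 CPM after T9. The log2 change was 1.45 ± 0.15 after T3 (2.73-fold, limma adjusted p = 2.12e-05) and 1.15 ± 0.15 after T9 (2.22-fold, 0.000133). Rrp12, which serves late maturation and export, changed by 1.42 ± 0.33 and 1.41 ± 0.33, and Heatr1, a large scaffold of the early precursor, by 1.23 ± 0.30 and 1.43 ± 0.30. Their sham libraries spread widely, from 19.02 to 75.2 CPM for Rrp12 and from 5.84 to 21.1 CPM for Heatr1. Wdr43 changed by 1.02 ± 0.12 after either injury, with 30.8 to 36.8 CPM in sham and 60.62 to 73.5 CPM in the 8 injured libraries. Nat10, which acetylates ribosomal RNA, Bysl, Rrp9 and Wdr75 changed by 0.52 to 0.80 after T3 and by 0.54 to 1.02 after T9.

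Of the 13 members of large subunit processing and other nucleolar functions, 11 rose after T3 and 12 after T9. The RNA helicase Ddx21 (ENSMUSG00000020075, chr10:62580251-62602281, GRCm38, minus strand) had the largest change of the members after T3. It was at 40.0, 60.58, 64.3 and 26.4 CPM in sham, at 141, 147, 144 and 129 CPM after T3 and at 116, 127, 135 and 145 CPM after T9. All injured libraries lay above all sham libraries, at changes of 1.64 ± 0.23 (3.11-fold, limma adjusted p = 0.000192) and 1.53 ± 0.23 (2.89-fold, 0.000365). Ftsj3, a ribosomal RNA methyltransferase, rose from 36.1 ± 13.02 to 101 ± 18.4 and 96.4 ± 3.02 CPM, and Mybbp1a, a nucleolar protein also found with the polymerase, from 72.1 ± 29.0 to 206 ± 36.4 and 182 ± 20.99 CPM. Pes1, Bop1 and Wdr12 form a stable complex needed for the large subunit, yet their changes after T3 were unequal, at 0.81 ± 0.12, 0.93 ± 0.19 and 0.32 ± 0.14, and Wdr12 was not called (limma adjusted p = 0.0975). After T9 all 3 were called, at 0.75, 1.24 and 0.66. Nip7, a small factor of the late nucleolar particle, was called in neither comparison.

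**Figure D2:**
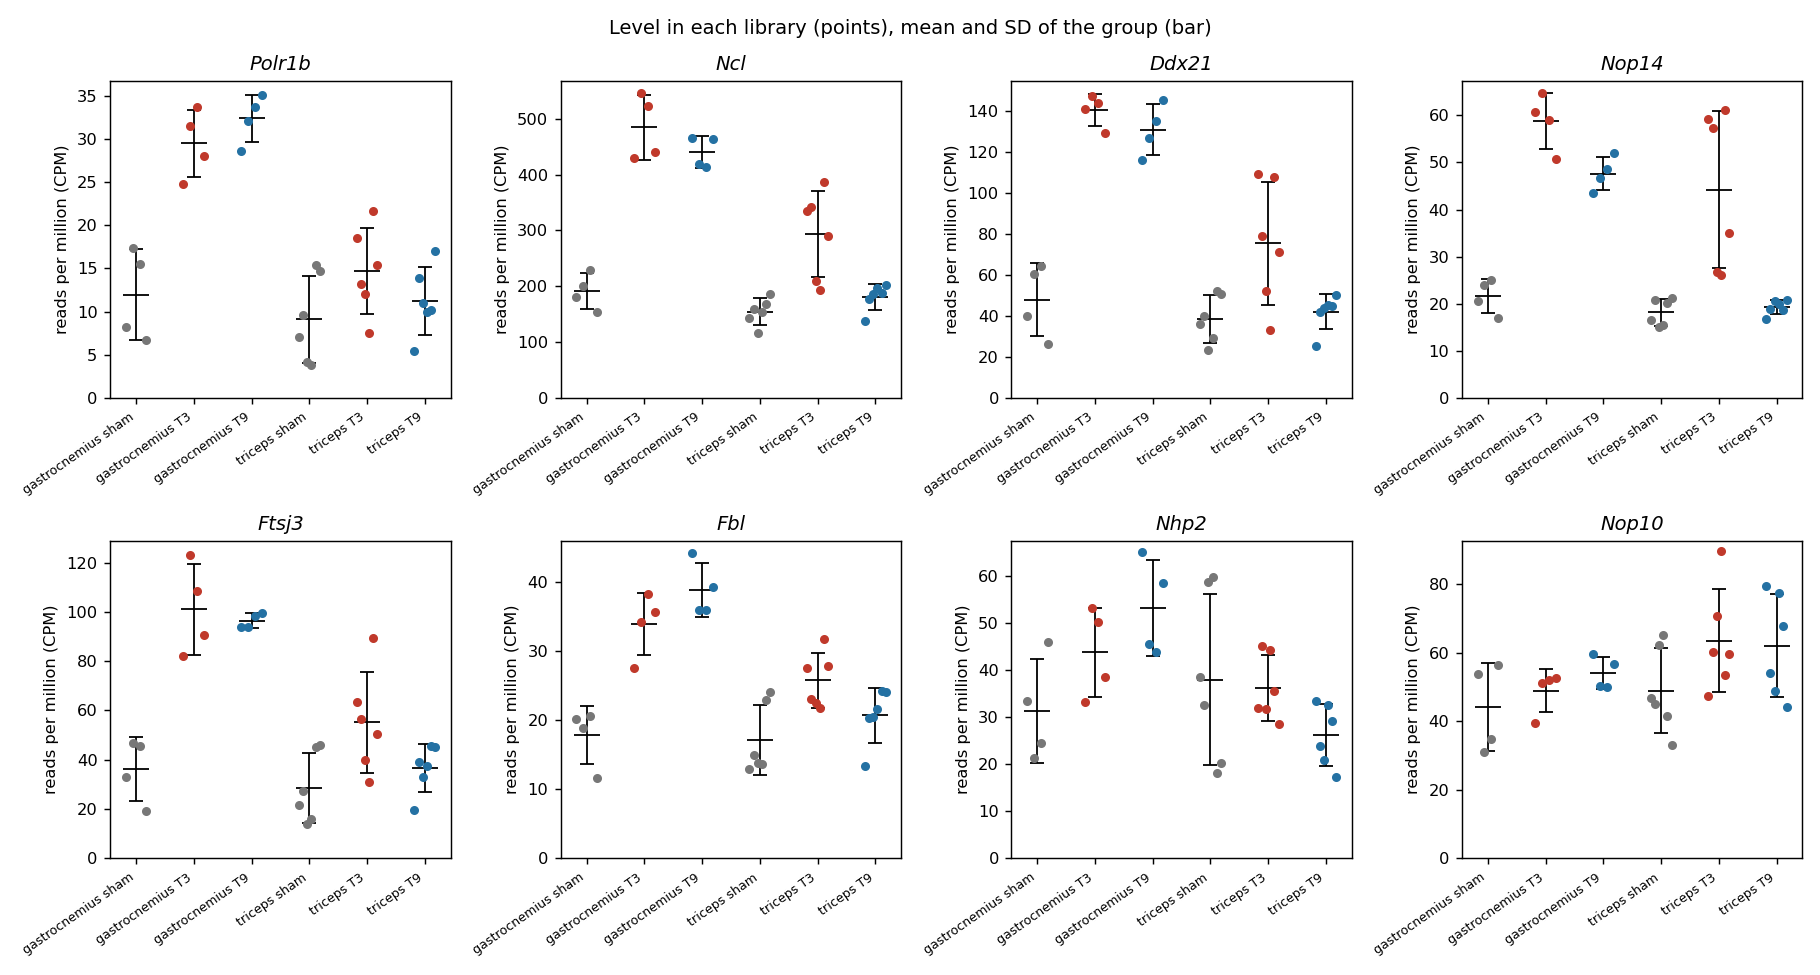
CPM (reads per 1e+06 reads, linear axes from 0) of 8 members in each of the 30 libraries (points), with the mean and SD of the group, for 4 gastrocnemius and 6 triceps libraries a group. Polr1b, Ncl, Ddx21, Nop14, Ftsj3 and Fbl lie higher in every injured gastrocnemius library than in sham, Nop14 is also above sham in every triceps T3 library, and Nhp2 and Nop10 overlap between groups.

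Counted without a model, 26 members did not overlap with sham after T3 in the gastrocnemius, each with all 4 injured libraries above all 4 sham libraries, beside 23.9% of all genes. After T9 the number was 34, beside 34.8% of all genes. Between T3 and T9 in the gastrocnemius no member was called, beside 1.63% of all genes. Of the members, 2 had an unadjusted p under 0.05, a cut for which the share of all genes is not given. The median difference, T3 minus T9, was -0.08 compared with -0.11 for all genes. For Rrp12, the estimate with the widest interval of those given here, the 95% interval of the difference ran from -0.69 to 0.72. In 3 members, Ebna1bp2, Nop16 and Wdr12, all T3 libraries lay below all T9 libraries, beside 12.3% of all genes. The estimate for Nop14 was 0.30 ± 0.15 (limma adjusted p = 0.363), and for Dkc1 -0.37 ± 0.17 (0.305).

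In the triceps, which lies above both lesions in its nerve supply, members rose after T3. After T3, 18 of 37 members were higher than in sham and none was lower, beside 19% of all genes called higher and 4.32% called lower. The median member changed by 0.53, compared with 0.23 for all genes, and 36 of 37 changes were positive. After median centring 28 of 37 were positive (median 0.29). After T9 no member was called with limma, beside 0.00889% of all genes, which is 1 gene. At an unadjusted p under 0.05 there were 3 members, Fbl, Nop16 and Wdr12, with changes of 0.25 to 0.30. The share of all genes under this unadjusted cut is not given, so the count has no background. The median member changed by 0.21 compared with 0.17 for all genes. The largest change after T9 was that of Ftsj3 (0.48 ± 0.24, limma adjusted p = 0.48), and the polymerase role ranged from 0.03 for Polr1c to 0.42 ± 0.29 for Polr1b. Nhp2 (-0.42 ± 0.23) and Npm1 (-0.01 ± 0.18) alone had negative estimates. Among the marker lists after T3 in the triceps, 3 of 6 fibroblast markers were lower (median -1.10), and 4 of 6 after median centring. Of 10 muscle fibre markers 2 were lower, and 3 after centring. Of 7 satellite cell markers 1 was higher, and after centring 1 was higher and 1 lower (median -0.22). The sums of fibroblast markers ranged from 189 to 1130 CPM in sham and from 134 to 318 CPM after T3, and those of endothelial markers from 24.9 to 232 and from 44.5 to 199 CPM. Their part in the triceps changes was not tested. The triceps counts after T3 depended on the scaling: 9 members were called after median centring (10.1% of all genes called higher), 6 after quantile normalization and 11 without the 4 libraries of lowest median. The opening number of the libraries' descriptions is 57 in 2 triceps libraries of each group (replicates 5 and 6) and 60 in the other 4, and no source used here says what it means. Sham libraries numbered 57 were often the highest of their group, as for Polr1b at 15.4 and 14.8 CPM beside 3.84 to 9.57 CPM in the other 4. Within the libraries numbered 60, 7 members were called, and within those numbered 57, 4 were called, with Ncl and Nop14 called in both. Except after median centring, these alternative counts have no share of all genes beside them.

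Nop14 had the largest change in the triceps after T3. Its lowest, median and highest values were 15.02, 18.3 and 21.3 CPM in the 6 sham libraries, 26.1, 46.1 and 61.1 CPM after T3, and 16.8, 19.5 and 20.7 CPM after T9. The T3 libraries did not overlap with either other group, but they fell into unequal levels, with replicates 3 and 4 at 26.8 and 26.1 CPM, replicate 6 at 35.02 CPM and the other 3 at 57.274 to 61.1 CPM. The change was 1.20 ± 0.20 (2.30-fold, limma adjusted p = 0.000541) against sham and 1.11 ± 0.20 (2.15-fold, 0.00285) against T9. It was called against sham in each of 33 alternative settings, with changes of 0.93 to 1.32.
Ncl reached 194, 313 and 387 CPM (lowest, median and highest) after T3, compared with 116, 157 and 186 CPM in sham and 137, 187 and 202 CPM after T9. Replicates 3 and 4 were again the lowest of the T3 libraries, at 209 and 194 CPM. The change was 0.89 ± 0.16 (limma adjusted p = 0.000665) against sham and 0.66 ± 0.16 (0.0132) against T9.
Wdr43 was at 36.5 to 59.6 CPM after T3 with a median of 51.2 CPM, against 25.8 to 30.7 CPM in sham and 26.5 to 34.2 CPM after T9. It changed by 0.76 ± 0.13 (limma adjusted p = 0.000531) against sham and by 0.62 ± 0.13 (0.00598) against T9.

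The members with the next largest changes in the triceps after T3 were Rrp12 (1.12 ± 0.37), Mybbp1a (1.07 ± 0.33), Ftsj3 (1.03 ± 0.24) and Ddx21 (0.91 ± 0.24). Their T3 libraries overlapped with sham. Mybbp1a, for example, ranged from 42.8 to 195 CPM after T3 and from 21.1 to 102 CPM in sham, and the lowest T3 library was again replicate 4. In the polymerase role, Polr1b was at 3.84, 8.30 and 15.4 CPM (lowest, median and highest) in sham, 7.57, 14.3 and 21.6 CPM after T3 and 5.44, 10.6 and 17.0 CPM after T9. Polr1b (0.82 ± 0.29, limma adjusted p = 0.0485) and Ubtf (0.54 ± 0.16, 0.0181) were called, Polr1c (0.42 ± 0.15) sat on the threshold at an adjusted p of 0.05 without being called, and Polr1a, Rrn3 and Polr1e changed by 0.79, 0.49 and 0.19 without passing. Fbl was called in the C/D role (0.63 ± 0.13) and Gar1 in the H/ACA role (0.55 ± 0.15). Dkc1 was the only member with a negative change after T3, at -0.16 ± 0.14 (limma adjusted p = 0.392), and its lowest T3 library, replicate 5 at 17.3 CPM, was the most deeply sequenced. Without a model, 4 members did not overlap with sham after T3, Ncl, Nop14, Rrp9 and Wdr43, beside 5.62% of all genes, and none after T9, beside 0.818% of all genes.

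Between the lesion levels in the triceps, 3 members were higher after T3 than after T9, Nop14, Ncl and Wdr43, beside 4.95% of all genes called higher and 2.65% called lower. For Nop14, Rrp9 and Wdr43 all T3 libraries lay above all T9 libraries, beside 3.3% of all genes. The median member differed by 0.34, compared with 0.05 for all genes, and 33 of 37 differences were positive. After median centring 28 of 37 were positive (median 0.28). No member was called within the libraries numbered 60 alone or within those numbered 57 alone, where the medians were 0.29 and 0.44. The count was 7 without T3 replicate 4 and 5 without sham replicate 4, the library with high macrophage markers.

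The 2 muscles were compared within 12 mice, taken from the numbers in the descriptions, with 4 mice in each surgery group and the mouse as a block. For the T9 effect, gastrocnemius minus triceps, all 37 members had a positive difference, with a median of 0.66 compared with 0.15 for all genes. After median centring 36 of 37 were positive (median 0.53). Of the 37 members, 7 were called without centring, beside 3.76% of all genes called higher and 3.19% called lower. Nhp2, an RNA-binding protein of the H/ACA particle (ENSMUSG00000001056, chr11:51619735-51623714, GRCm38, plus strand), had the largest difference, 1.57 ± 0.21 (2.96-fold, limma adjusted p = 0.000994). In the gastrocnemius it went from 33.4, 21.2, 24.5 and 46.1 CPM in sham to 65.1, 45.7, 43.9 and 58.6 CPM after T9. In the triceps of the same mice it went from 38.5, 32.6, 58.8 and 59.9 CPM to 33.5, 23.9, 20.9 and 32.5 CPM. The group means moved in opposite directions, but T9 libraries overlapped with sham in both muscles. Over all triceps libraries the fall was not called (-0.42 ± 0.23, limma adjusted p = 0.504). The highest sham values in the triceps were those of replicates 3 and 4, among the libraries of lowest median. Without the 4 libraries of lowest median the Nhp2 difference was 1.36 (limma adjusted p = 0.00652).
The other 6 called were Nop14 (0.98 ± 0.25), Ncl (0.93 ± 0.26), Npm1 (0.90 ± 0.19), Bop1 (0.88 ± 0.22), Wdr43 (0.80 ± 0.19) and Nop16 (0.60 ± 0.16), with limma adjusted p from 0.0126 to 0.0479. Of the 7, Nhp2 alone was called without those libraries. The count lay between 2 and 16 when each mouse was left out in turn, and the 16 came without sham mouse 4 (replicate 3 of both muscles), whose triceps library had the lowest median gene of all. The 2 muscles of this mouse deviated from their group means in opposite directions over all genes (r = -0.64). The median log2 level of all genes was 3.29 in its triceps library and 4.06 in its gastrocnemius library, the highest of gastrocnemius sham. Whether its number names 1 animal was not tested. Satellite cell and myogenic markers moved with this comparison, with 2 of 7 called (median 1.06) and 4 of 7 after median centring, and their part was not tested. None of the 6 members of the polymerase role was called, at differences of 0.35 to 0.99. For the T3 effect no member was called, beside 1.24% of all genes. Of the members, 4 had an unadjusted p under 0.05, a cut for which the share of all genes is not given. Positive differences numbered 33 of 37, and 35 after median centring. The largest difference was that of Nhp2 (0.81 ± 0.21, limma adjusted p = 0.0811).

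**Figure D3:**
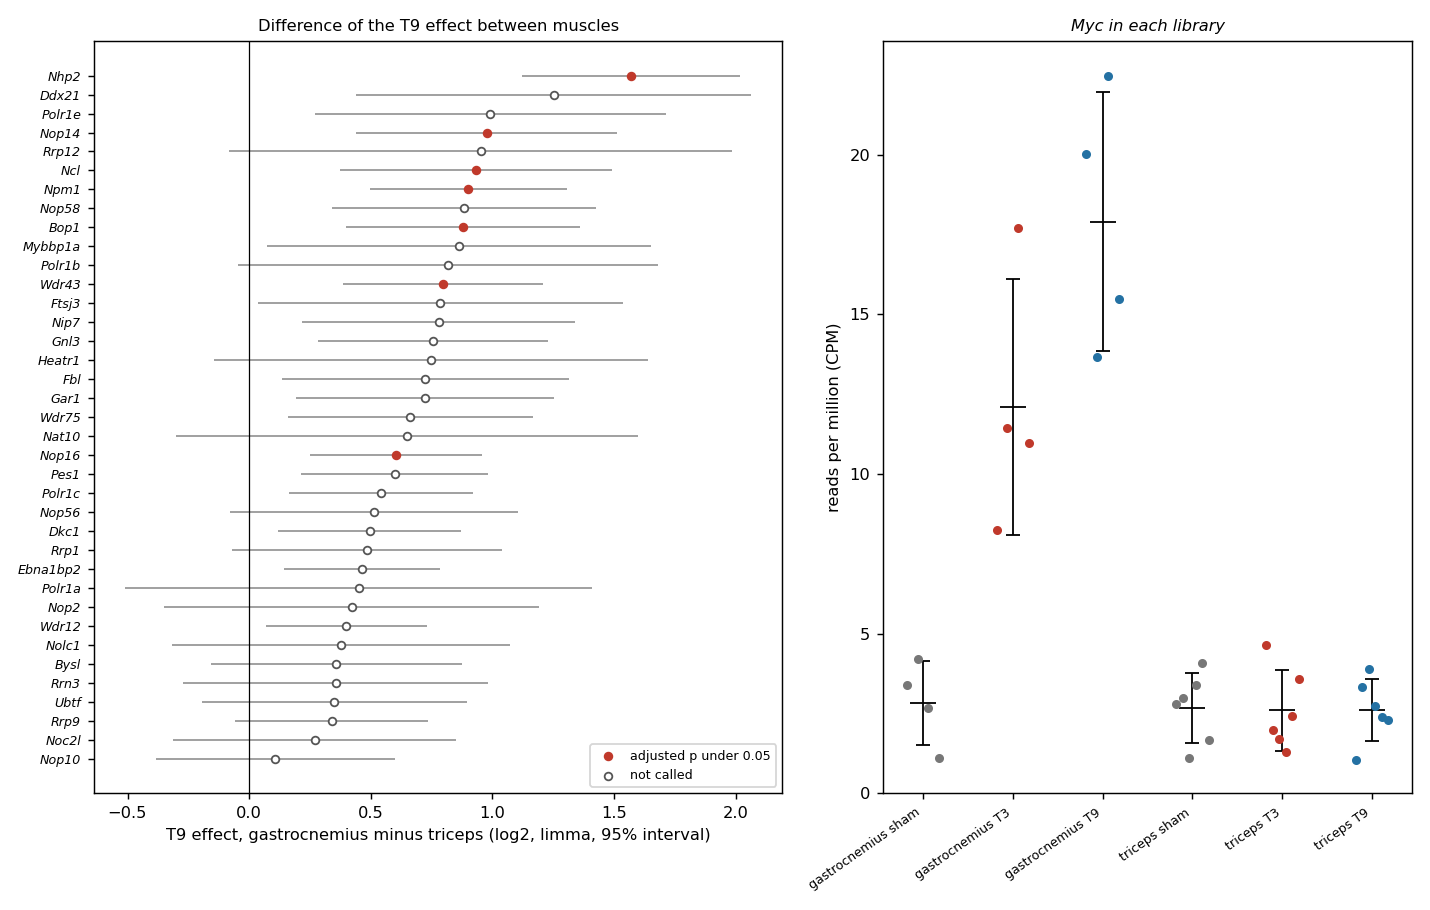
Left, the T9 effect in the gastrocnemius minus that in the triceps for each member, log2 with 95% interval, from 24 libraries of 12 mice. All 37 lie above 0 and 7 are called (filled). Right, Myc in CPM (axis from 0) in all 30 libraries with the mean and SD of the group, at 8.26 to 22.5 CPM in the injured gastrocnemius and at 1.04 to 4.64 CPM elsewhere.

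In sham mice 13 members were higher and 2 lower in the gastrocnemius than in the triceps, beside 26.8% and 12% of all genes. After median centring 9 were higher and 6 lower, with a median of 0.06. Rrp12 (1.15 ± 0.34) and Polr1a (1.15 ± 0.31) led the higher ones, and the lower ones were Nhp2 (-0.62 ± 0.15) and Nip7 (-0.59 ± 0.18). No member was called here without sham mouse 4 or without the block. After T3 24 members were higher in the gastrocnemius than in the triceps (20.5% of all genes called higher and 9.95% lower) and after T9 34 (41.9% and 11.1%), with none lower. The T3 count fell to 1 without mouse 10, to 5 without mouse 8 and to 13 without mouse 7. The T9 count was 31 to 35 when each mouse was left out. With each library centred on its median, 18 members were higher and 1 lower after T3 (median 0.33). After T9 the centred counts were 24 higher and 1 lower (median 0.58). The shares of all genes given above are uncentred, and none is given for the centred counts between muscles.

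Levels per kilobase of coding sequence ordered the members in sham. In the gastrocnemius Nop10 stood highest at 229 CPM per coding kilobase, followed by Npm1 at 144, Ncl at 90.2 and Nhp2 at 68.2. The polymerase subunits stood low, with Polr1a at 6.77, Polr1b at 3.51 and Polr1e at 2.70, and Heatr1 was the lowest at 2.096 CPM per coding kilobase. In the triceps the order at the ends was alike, with Nop10 at 255 and Heatr1 at 1.70.

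Among the members the size of the change went with the length of the coding sequence. Coding sequences of the members ran from 192 bases (Nop10) to 6429 bases (Heatr1). Across the 37 members, Spearman's rho between coding length and log2 change was 0.71 (T3) and 0.67 (T9) in the gastrocnemius and 0.70 (T3) and 0.34 (T9) in the triceps. These are descriptions across genes that share libraries, and no rho over all genes is given. Sham libraries of the gastrocnemius differed among themselves in long and short members. For example, the long Heatr1 was at 10.6, 21.1, 16.4 and 5.84 CPM in replicates 1 to 4. In the same order the short Nip7 was at 17.4, 10.5, 11.8 and 25.0 CPM. The part of single sham libraries in rho was not tested. In the gastrocnemius after T3 the 12 longest members, of 2292 bases or more, had a median change of 1.32, and the 12 shortest, of up to 1308 bases, a median of 0.50. Each library's trend on coding length and GC content over all genes was then removed. With this, 34 (T3) and 36 (T9) members were called in the gastrocnemius and 24 (T3) in the triceps. The share of all genes called in this setting is not given, so these counts do not set the members apart from other genes. The part of length in the size of the changes was not tested. For the T9 difference between muscles rho was 0.14.

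**Figure D4:**
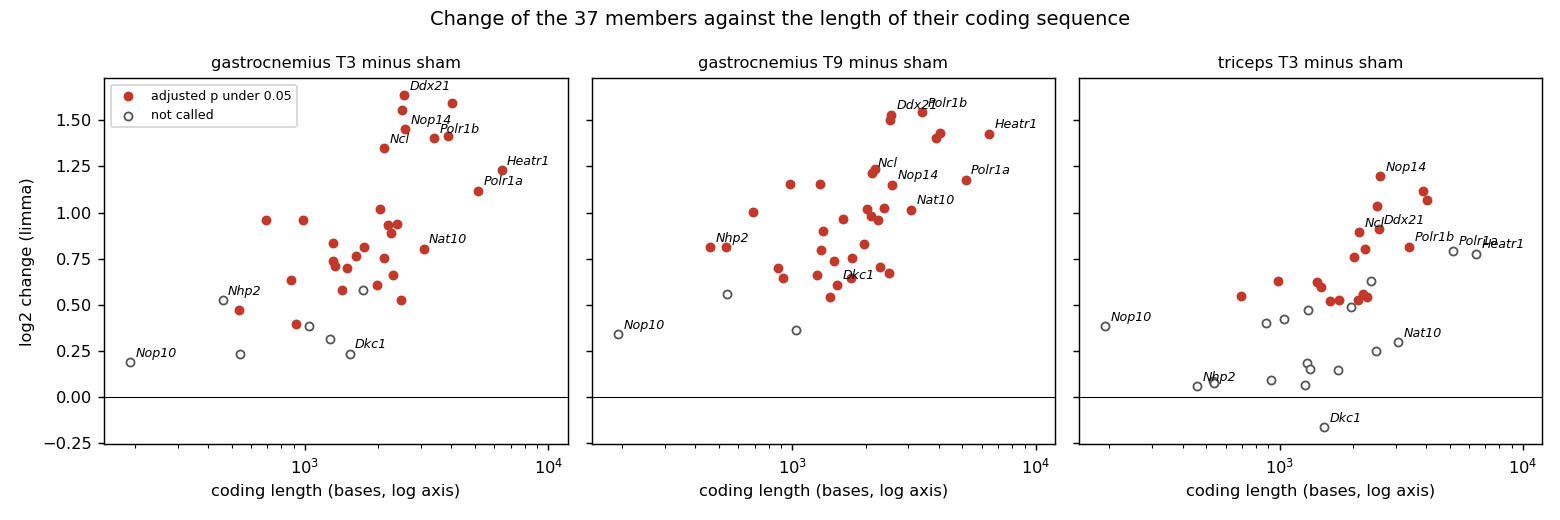
Log2 change against sham (limma) of the 37 members against the length of their coding sequence in bases (log axis), for the gastrocnemius (T3, then T9) and the triceps (T3). Short members such as Nop10 lie low and long ones such as Heatr1 and Polr1a high, with rho of 0.71, 0.67 and 0.70. Nop14 and Ddx21, at 2580 and 2553 bases, lie near the top after T3.

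Other genes of the pathway had smaller medians than the 37 members, several of them near that of all genes. The counts below are of genes called higher after T3 and after T9 in the gastrocnemius and after T3 in the triceps. They are to be read beside the 27.1%, 37.6% and 19% of all genes that were called higher. Counts after median centring are to be read beside 14.6%, 11.1% and 10.1% of all genes called higher. Of 54 other small subunit factors 33 rose after T3 and 39 after T9 in the gastrocnemius, and 17 after T3 in the triceps, with medians of 0.54, 0.64 and 0.35. After median centring the counts were 17, 13 and 4. Utp14a of the small subunit processome changed by 1.04 ± 0.15, 1.04 ± 0.15 and 0.75 ± 0.13. Of 63 other large subunit factors 42, 50 and 24 rose, among them the GTPase Gtpbp4 (1.24, 1.11 and 0.97) and the helicase Ddx56 (1.47, 0.92 and 1.31), and 26, 19 and 10 were called higher after centring. In this list Nmral1, known as a redox sensor and not as an assembly factor, fell by 0.89 after T3 in the gastrocnemius and by 1.31 in the triceps. Of 17 further polymerase I subunits and cofactors 7, 9 and 2 rose, including treacle, Tcof1, at 1.20 ± 0.22, 0.89 ± 0.22 and 0.65 ± 0.23. After centring 2, 0 and 0 of the 17 were called higher, with medians of 0.13, 0.07 and -0.02. Of 22 RNA polymerase III genes 7 rose and 2 fell after T3, 13 rose after T9, and 3 rose and 2 fell in the triceps after T3. Those that fell after T3 were in both muscles Polr3k (-1.11 and -0.86) and Gtf3a (-0.79 and -0.51), the factor that reads the small ribosomal RNA gene. After centring the medians of this list were 0.03, 0.05 and 0.01, with 4, 3 and 0 genes called higher. Of 22 genes of the RNA exosome and of particle assembly 9, 12 and 8 rose, led by the exosome nuclease Dis3 (0.82, 1.20 and 0.67), and Pih1d1 and Znhit3 of the assembly machinery fell after T3 in both muscles. After centring 4, 3 and 3 of that list were called higher. Of 44 translation initiation factors 27, 28 and 19 rose, with Eif4a1 at 1.55, 1.64 and 1.14, and after centring 18, 8 and 10. The cap-binding protein Eif4e fell by 0.91 after T3 and by 0.89 after T9 in the gastrocnemius. Of 6 genes of the 5S particle 2, 2 and 1 rose, and after centring 1, 0 and 0, with medians of -0.16, 0.01 and -0.13. In the triceps after T9 no gene of these lists was called.

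Of 81 cytosolic ribosomal protein genes 1 rose and 1 fell after T3 in the gastrocnemius, 1 rose and 2 fell after T9, and 0 rose and 1 fell in the triceps after T3. Their medians were -0.19, -0.07 and -0.40, below those of all genes. After median centring the medians were -0.47, -0.47 and -0.63. No gene of this list was called higher after T3 in the gastrocnemius once centred, so the call of Rpl3 there was lost, and 1 was called higher after T9. Those called after T3 in the gastrocnemius were a pair of paralogs. Rpl3, found in most tissues, rose by 1.17 ± 0.29 (limma adjusted p = 0.00845) and 1.85 ± 0.29 (0.000547) in the gastrocnemius, while Rpl3l, its counterpart in striated muscle, fell by 0.76 after T3 and by 1.06 after T9, and by 0.38 in the triceps after T3. In the triceps Rpl3 was at 0.07 ± 0.36 after T3 and -0.26 ± 0.36 after T9. The T9 effect on Rpl3 was larger in the gastrocnemius than in the triceps by 2.43 ± 0.35 (limma adjusted p = 0.00189). The lists of the pathway were compared side by side, and no test of their difference was made.

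**Figure D5:**
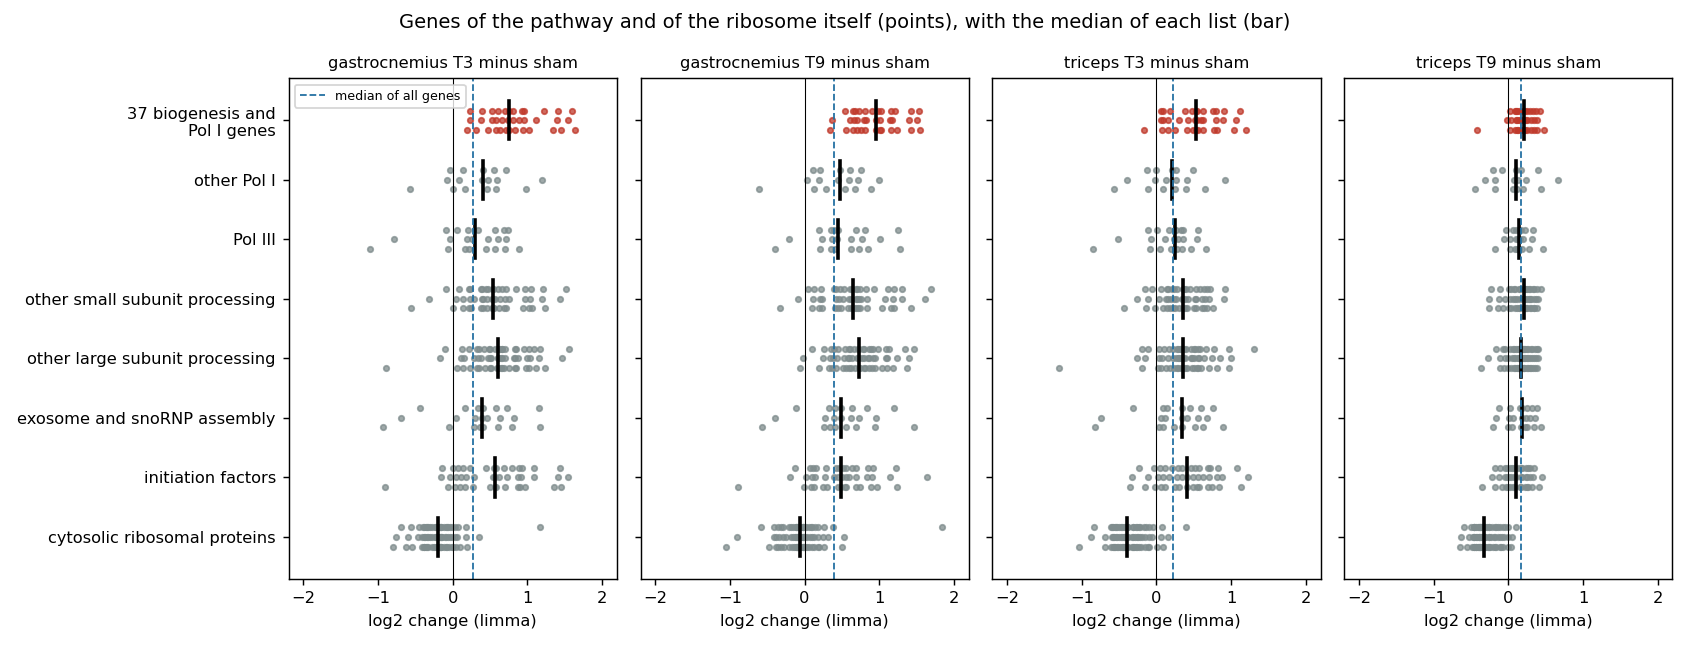
Log2 change against sham (limma) of the single genes (points) of 8 lists and the median of each list (bar), in 4 comparisons, with the median of all genes as a dashed line. The 37 members have medians of 0.76, 0.96, 0.53 and 0.21, and the 81 cytosolic ribosomal proteins medians of -0.19, -0.07, -0.40 and -0.33.

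Among 20 regulators of the pathway in the table, 12 rose after T3 and 11 after T9 in the gastrocnemius, and 7 rose and 1 fell in the triceps after T3, beside 27.1%, 37.6% and 19% of all genes called higher. After median centring 5 were higher and 1 lower, 5 were higher, and 5 were higher and 1 lower. The shares of all genes called higher after centring were 14.6%, 11.1% and 10.1%. Myc was at 3.39, 4.20, 2.67 and 1.10 CPM in sham gastrocnemius, at 8.26, 11.5, 17.7 and 10.97 CPM after T3 and at 20.0, 13.7, 22.5 and 15.5 CPM after T9. No injured library overlapped with sham. The changes were 2.18 ± 0.36 (4.54-fold, limma adjusted p = 0.000588) and 2.78 ± 0.36 (6.85-fold, 0.000134). In the triceps Myc lay at 1.10 to 4.07 CPM in sham, 1.29 to 4.64 CPM after T3 and 1.04 to 3.88 CPM after T9, with changes of -0.05 ± 0.37 (limma adjusted p = 0.939) and -0.01 ± 0.37 (0.988). The difference between muscles was 2.72 ± 0.69 (limma adjusted p = 0.0325) for the T9 effect and 2.34 ± 0.69 (0.133) for the T3 effect. After T3 members were called in both muscles and Myc in the gastrocnemius, and the test of the T3 difference of Myc between muscles did not pass. Max, the partner of Myc, changed by 0.55, 0.59 and 0.59 in the gastrocnemius after T3, after T9 and in the triceps after T3, and its antagonists Mxd4 (0.67, 0.63 and 0.64) and Mnt (0.88, 0.76 and 1.01) were higher in the same comparisons. Mxi1, another antagonist, fell by 0.46 in the triceps after T3. Eif4ebp1, a brake on cap-dependent translation that the kinase mTOR relieves, changed by 2.35 ± 0.17, 1.39 ± 0.17 and 1.94 ± 0.18, and by 0.04 ± 0.18 in the triceps after T9.

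In the annotation the exons of 17 members overlap those of another gene. For Ncl, Nop56, Nop58 and Gnl3 these include small nucleolar RNAs encoded inside the gene. For others it is a neighbour on the opposite strand, as for Bysl, whose exons share 361 bases, or 9.37%, with Ccnd3, and Noc2l, which shares 598 bases, or 20.9%, with Samd11. The library kit keeps the strand, but the strand setting of the counting is not stated in the sources at hand, so reads of these pairs may be shared.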

How the data were processed

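PolyA RNA of 30 mouse muscle libraries was made into strand-specific libraries and sequenced as 150-base pairs, per the labels' protocols. The submitters' processing notes name HISAT2 2.1.0, featureCounts, Subread 1.5.1, limma and, as the build, GRCm38. The authors deposited log2 CPM values, which carry an offset of 0.5 reads: whole reads came back for 100% of values within 0.01 reads, each library scaled to its own total only. Depth is the sum of those reads, and precision was taken from the spread between libraries.

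The members, the other lists, the tests and the alternatives were chosen with earlier results of these data known. Libraries were grouped by their titles. Replicates of a group differed by more than sampling noise (chi-square per degree of freedom of 9.78 or more over 63 pairs). No source says that libraries are separate animals, so p-values measure the spread between them. limma 3.58.1 in R 4.3.3 (variance trend, two-sided) was fitted over all genes that reached a log2 value of 0 in 4 or more libraries, 11248 in the gastrocnemius and 11249 otherwise, with Benjamini-Hochberg adjustment over them and a threshold of 0.05. The main fits used the log2 values as deposited. No count test was run, and the recovered reads entered only as an alternative, with voom weights. The 12 gastrocnemius libraries and the 18 of the triceps, these with the label number (57 or 60) as a term, were fitted apart. Muscles were compared in 24 libraries with the mouse as a block. The mouse is taken to be the number after 57 or 60, an inference: over all genes, deviations of the muscles correlated at r over 0.1 in 10 of 12 mice, with a mean r of 0.29 and an exception at -0.64 for sham mouse 4. All values of fold and CPM are computed from the log2 values.

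Every member could be named, with up to 6 of the largest changes, the polymerase role and members against the majority in full. Of the other lists up to 4 genes with the smallest adjusted p, those that fell, and regulators were named. Nmral1, Pih1d1, Znhit3, Rpl3 and Rpl3l, where outside that rule, were chosen after their values were seen. Results for some genes are not reported here. Coding lengths and exons come from GENCODE M21 on GRCm38, upstream sequences from RefSeq on GRCm38.p6, and look-alikes from blastn 2.17.0. The fits were tested on simulated data. Alternatives were scalings, filters, a pseudocount of 1 CPM, variance models, voom weights on the recovered reads, other sets of libraries, blocks and leaving out each library or mouse. Removing length and GC trends and using label number 57 alone were added after seeing the data.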

Additional observations from a re-analysis of the deposited data

Results flagged for a closer look

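Within groups, 13 of 222 sets of a member and a group (5.86%) held a library whose distance from the nearest other library was large for the range of the group (Dixon's 95% limit); chance gives about 1 in 20. Of these, 6 were the low values of triceps T9 replicate 1, among the 4 libraries of lowest median: Ncl at 137 CPM, Fbl at 13.4 CPM, Nop2 at 10.2 CPM, Ddx21 at 25.3 CPM, Bysl at 20.5 CPM and Mybbp1a at 25.8 CPM. In gastrocnemius sham replicate 4, also of low median, Fbl stood low at 11.6 CPM. Low values in other libraries were Nop10 at 39.4 CPM in gastrocnemius T3 replicate 1, Nolc1 at 53.4 CPM in gastrocnemius T9 replicate 4, Rrn3 at 30.7 CPM in triceps T3 replicate 4 and Dkc1 at 17.3 CPM in triceps T3 replicate 5. High values were Nop58 at 27.5 CPM in triceps T3 replicate 3 and Nop16 at 44.1 CPM in gastrocnemius T9 replicate 1.

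The T9 effect differed between the muscles, by the interaction test of limma, for 7 members and Myc. The differences, gastrocnemius minus triceps on the log2 scale, were 1.57 for Nhp2, 0.98 for Nop14, 0.93 for Ncl, 0.90 for Npm1, 0.88 for Bop1, 0.80 for Wdr43, 0.60 for Nop16 and 2.72 for Myc.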

How the results depend on the processing

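No member was called in the gastrocnemius between T3 and T9 or in the triceps after T9 under any alternative run. The counts of members in this section show how they move between settings. They are given without the share of all genes called in each setting. In the gastrocnemius the count after T9 was 22 with median centring, and with the library median as a covariate, which takes up part of the group difference, the counts were 10 after T3 and 7 after T9. The latter turned Nolc1 (-0.021) and Nat10 (-0.066) after T3, and Nop2 (-0.21), Nolc1 (-0.14), Ubtf (-0.035) and Nat10 (-0.24) after T9 below 0. The triceps count after T3 was 6 with quantile normalization, 9 with median centring, 11 without the 4 libraries of lowest median, 7 with voom weights and TMM scaling, 11 with no label number term, 7 with label number 60 alone and 4 with 57 alone. Between T3 and T9 in the triceps it was 5 with median centring, 11 with length and GC trends removed, 5 with voom weights, 14 with the median covariate, and 0 with label number 60 alone and 0 with 57 alone. With length and GC trends removed the differences between muscles were called for 1 member (T3 effect), 19 (T9 effect) and 7 (sham), and Nop10 (0.58 in sham, 0.62 after T9) and Nip7 (0.0060 in sham) changed sign. Between muscles after T9 Dkc1 was at -0.042 and -0.098 and Polr1c at -0.0091 and -0.013 with quantile normalization and median centring. Without the 4 libraries of lowest median the T9 effect differed for 1 member and sham muscles for 0. The cause was not tested.

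Leaving out each library gave 24 to 33 members (gastrocnemius T3), 33 to 36 (T9), 0 to 0 (T3 against T9), 12 to 22 (triceps T3), 0 to 0 (triceps T9) and 3 to 7 (triceps T3 against T9). Leaving out each mouse gave 0 to 0 for the T3 effect, 2 to 16 for the T9 effect, 0 to 17 in sham, 1 to 28 after T3 and 31 to 35 after T9.

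Libraries of the same title replicate number in different surgery groups deviated together at a mean r of -0.14 to 0.26, beside 0.29 for the mouse numbers. This r does not tell whether either set of numbers marks pairs. The main fits did not use the replicate numbers. With the replicate numbers as a block the counts were 28, 34 and 0 in the gastrocnemius and 15, 0 and 3 in the triceps. Without the mouse as a block the counts were 0 (T3 effect), 5 (T9 effect), 0 (sham), 18 (T3) and 33 (T9).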
